A study of Mus musculus with 90 samples.

Results

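Liver RNA of 12 mice labelled black was compared with that of 63 mice labelled agouti, 75 of the 90 animals in the study. The members were chosen by the coat colour label alone, and no expression value was used. The 15 white animals were left out. All were female Diversity Outbred (J:DO) mice, 6 to 20 weeks of age, each with its own library from 25 mg of liver. Of the black animals, 6 received sterile distilled water (vehicle) and 6 received zileuton, an inhibitor of 5-lipoxygenase, at 300 mg/kg by mouth on 7 successive days. Of the agouti animals, 29 received vehicle and 34 received zileuton. Exposure was therefore kept as a term in the model, and the comparison was also made within each exposure.

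Diversity Outbred mice descend from a cross of inbred founder strains, and every animal carries its own mosaic of founder chromosomes. The gene a (nonagouti) encodes the agouti protein, a ligand made in the hair follicle that opposes melanocortin signalling in pigment cells, so that hairs gain a yellow band. The nonagouti allele is recessive and came into the stock from A/J and C57BL/6J founders. A black animal that is not albino thus has nonagouti haplotypes on both copies of this stretch of chromosome 2, and an agouti animal has at most 1. Genes that lie near a tend to be inherited with it, so black animals may carry A/J or C57BL/6J sequence there more often than elsewhere. The length of any such stretch is not known here. The labels give coat colour, not genotype, and founder haplotypes were not analysed here.

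In the mm10 build with GENCODE M21 annotation, a spans chromosome 2 from 154791402 to 155051012 on the plus strand. The count table used here has no column for a or for Mc1r, the melanocortin receptor of pigment cells, so the coat labels were not checked against either gene. Library totals, as estimated counts, ran from 16471322 to 38967793 in black animals and from 12664579 to 41360187 in agouti animals, with medians of 24779849 and 25664592. The common biological coefficient of variation over all tested genes was 33.4%. Summed hepatocyte markers lay between 103100 and 154000 CPM (counts scaled to library size) in black animals and between 81440 and 187800 CPM in agouti animals. A single agouti vehicle library, replicate 6, held 4523 CPM of skeletal muscle markers, against at most 1.43 CPM in the zileuton-treated agouti animals and 1.28 CPM in black animals. The black vehicle animals came from 6 of 8 runs of 50 animal numbers and the black zileuton animals from 3 of them.

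Few genes differed between the coats over the whole liver transcriptome, and 2 of the 4 called genes lay within 1 Mb of a. Of 14178 genes tested with the edgeR quasi-likelihood test, 4 (0.0282%) passed a Benjamini-Hochberg adjusted p of 0.05, 2 higher and 2 lower in black animals. On chromosome 2, Myh7b, a myosin heavy chain of slow muscle whose intron holds a microRNA, fell, and Pigu, a subunit of the enzyme complex that attaches proteins to glycosylphosphatidylinositol anchors, rose. The other called genes were Gm16223 on chromosome 5, which fell, and Mup14 on chromosome 4, a major urinary protein gene, which was higher through 1 animal. In the same fit, zileuton against vehicle called 3624 genes (25.6%).

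At an unadjusted p of 0.05, 924 genes (6.52%) differed, 467 of them higher in black animals, and at an unadjusted p of 0.001, 31 genes (0.219%) did. Within 5 Mb of a, measured from gene start to gene start, 147 genes were in the table and 118 passed the filter on low counts. Of these 118, 22 (18.6%) were at an unadjusted p under 0.05 and 4 (3.39%) under 0.001. Windows of 1 and 2 Mb were not among those set in advance. The share under 0.05 was 33.3% within 1 Mb (8 of 24 genes) and 21% within 2 Mb (13 of 62). Further out it was 7.41% from 5 to 10 Mb (4 of 54), 8.16% from 10 to 20 Mb (8 of 98), 5.9% from 20 to 40 Mb (16 of 271) and 4.45% beyond 40 Mb (24 of 539). The other chromosomes ran from 4.24% on chromosome 8 to 8.95% on chromosome 17. Both directions occurred near a, with 14 of the 22 genes higher and 8 lower in black animals. The median log2 fold change of the 118 genes was −0.01, and the median absolute log2 fold change was 0.08, against 0.07 over all genes tested. Neighbouring genes share a haplotype, so these counts are not of independent events.

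**Figure D1:**
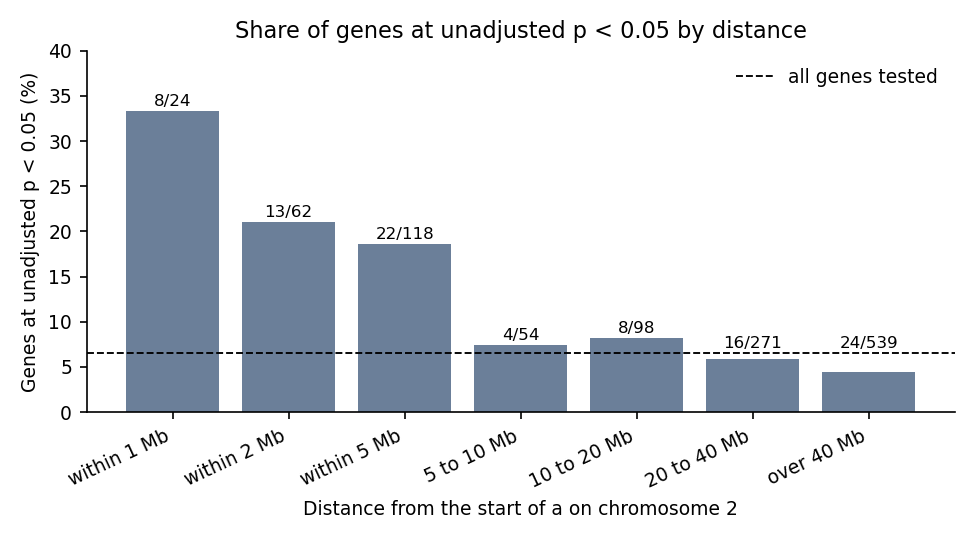
Percent of tested genes at an unadjusted p under 0.05 for black against agouti, by distance of the gene start from the start of a on chromosome 2, with the number of genes above each bar. The share is 33.3% within 1 Mb and 4.45% beyond 40 Mb, and the dashed line is the 6.52% of all genes tested. The windows within 1, 2 and 5 Mb are nested, and those of 1 and 2 Mb were not set in advance.

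**Figure D2:**
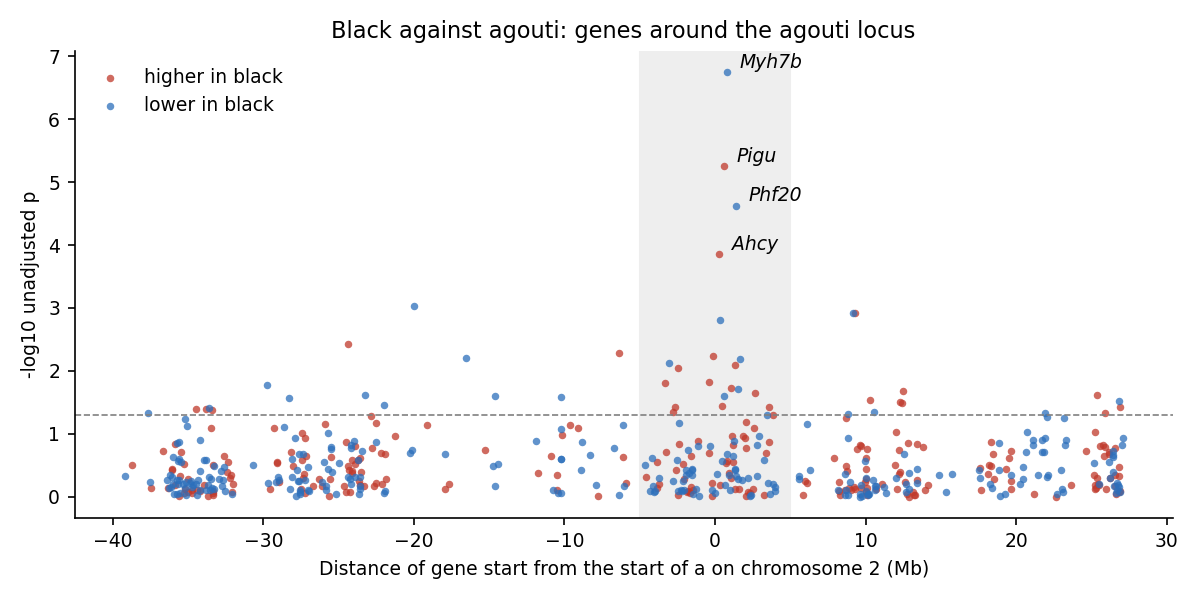
The −log10 of the unadjusted p of each tested gene within 40 Mb of a, against the distance of its start in Mb, red for higher and blue for lower in black animals. The shaded band marks 5 Mb to each side and the dashed line p = 0.05. Myh7b, Pigu, Phf20 and Ahcy, all within 2 Mb on the distal side, stand above the other genes.

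Myh7b lies at chromosome 2, 155611212 to 155634307 on the plus strand, 0.82 Mb distal to a. In black vehicle animals its lowest, median and highest levels were 0.0281, 0.0737 and 0.245 CPM, and in black zileuton animals 0, 0.0209 and 0.124 CPM. Agouti vehicle animals ran from 0 over a median of 1.07 to 3.53 CPM, and agouti zileuton animals from 0 over 0.250 to 1.30 CPM. All 12 black animals lay below the agouti median of their own exposure, and 41 of 63 agouti animals lay above the highest black animal, with overlap at the bottom of the range. The log2 fold change was −3.31 ± 0.58 (SE, adjusted p = 0.00126, edgeR). It was −3.55 ± 0.85 in vehicle animals (unadjusted p = 0.000188) and −2.93 ± 0.74 in zileuton animals (unadjusted p = 0.000298). The gene is barely expressed in liver. Its 12 black libraries held 20 counts in all, 0 to 4 each, against a median of 12 and a highest of 121 counts in agouti libraries, so the size of the fold rests on few counts. Myh7b was named after its values were seen, since its mean of 0.615 CPM is below the 1 CPM set for named genes. It also fell with zileuton in the same fit, by 1.58 on the log2 scale (adjusted p = 4.37e-05).

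Pigu lies at 155278243 to 155357430 on the minus strand, with its start 0.566 Mb from that of a. The lowest, median and highest levels were 12.4, 14.5 and 16.2 CPM in black vehicle animals and 14, 15.3 and 17.5 CPM in black zileuton animals. In agouti animals they were 9.96, 12.5 and 16.8 CPM under vehicle and 9.10, 12.4 and 15.5 CPM under zileuton. The shift was small: 11 of 12 black animals were above the agouti median, and 31 of 34 agouti zileuton animals were below the lowest black zileuton animal. Under vehicle the groups overlapped, with black animals at 12.4 to 16.2 CPM and agouti animals at 9.96 to 16.8 CPM. The log2 fold change was 0.25 ± 0.05 (SE, adjusted p = 0.0195). Within exposures it was 0.17 ± 0.08 under vehicle (unadjusted p = 0.0397) and 0.32 ± 0.07 under zileuton (unadjusted p = 1.52e-05). The call was lost without any 1 of 5 black animals (vehicle replicate 4 and zileuton replicates 1, 2, 3 and 5), with adjusted p up to 0.0988.

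Phf20, at 156196466 to 156309952 on the plus strand and 1.4 Mb distal to a, encodes a reader of methylated lysine that belongs to a histone acetyltransferase complex. Black vehicle animals had 6.17, 7.69 and 10.04 CPM (lowest, median, highest) and black zileuton animals 7.17, 9.21 and 13.2 CPM. The agouti values were 7.13, 10.8 and 15.1 CPM under vehicle and 7.07, 12.8 and 18.96 CPM under zileuton. Phf20 was named after its values were seen. Its groups overlapped, with 11 of 12 black animals below the agouti median of their exposure. The log2 fold change was −0.41 ± 0.09, and its adjusted p of 0.0668 did not pass. The values were −0.45 ± 0.12 under vehicle (unadjusted p = 0.000411) and −0.38 ± 0.14 under zileuton (unadjusted p = 0.00948). It passed under 6 of 14 other settings, DESeq2 and limma-voom among them, with adjusted p from 0.0154 to 0.373 over the 14.

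Ahcy encodes S-adenosylhomocysteine hydrolase, which clears the product of methyl transfer in the methionine cycle, and is the nearest of these to a (155059310 to 155074497, minus strand, 0.283 Mb between starts). It is abundant in liver. The 12 black animals ran from 316.5 to 787.5 CPM with a median of 617 CPM, namely 316.5, 600.7 and 635.3 CPM (lowest, median, highest) under vehicle and 539.9, 617 and 787.5 CPM under zileuton. Agouti animals ran far lower, at 79.4, 302.5 and 742.3 CPM under vehicle and 60.9, 190 and 732.8 CPM under zileuton. Every black animal was above the agouti median of its exposure, and 37 of 63 agouti animals were below the lowest black animal. The log2 fold change was 1.09 ± 0.27 (adjusted p = 0.177), 0.68 ± 0.33 under vehicle (unadjusted p = 0.0473) and 1.43 ± 0.41 under zileuton (unadjusted p = 0.00113). The gene did not pass the adjusted test in the fit of all 75 animals or in any of 75 fits that left out 1 animal. Ahcy has processed pseudogenes, and how reads shared with such copies were counted is not given in the sources used here, so its level is uncertain.

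Agouti animals were spread unevenly in Ahcy. Of 34 agouti zileuton animals, 17 lay between 60.9 and 121.1 CPM and the other 17 between 258.8 and 732.8 CPM, with none between. In 29 agouti vehicle animals the widest gap was smaller, from 160.5 to 220.6 CPM, with 8 animals below it and 21 above. Among the 12 black animals the widest gap was from 323.6 to 539.9 CPM, with 2 animals below it. Those were black vehicle replicates 2 and 6, at 323.6 and 316.5 CPM. The same pair had the lowest Pigu among black animals, at 12.9 and 12.4 CPM, and the highest Myh7b, at 0.183 and 0.245 CPM. In Phf20 they were at 10.01 and 10.04 CPM, the highest of the black vehicle group. Both animals were also extreme on other chromosomes, replicate 2 in Ms4a1 (4.80 CPM) and replicate 6 in Cyp2b10 (3157 CPM) among others. Without both, 564 of 14178 genes (3.98%) were at an unadjusted p under 0.05, against 924 (6.52%) with them. Genotype was not analysed here, so the founder haplotypes of these animals are not known.

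**Figure D3:**
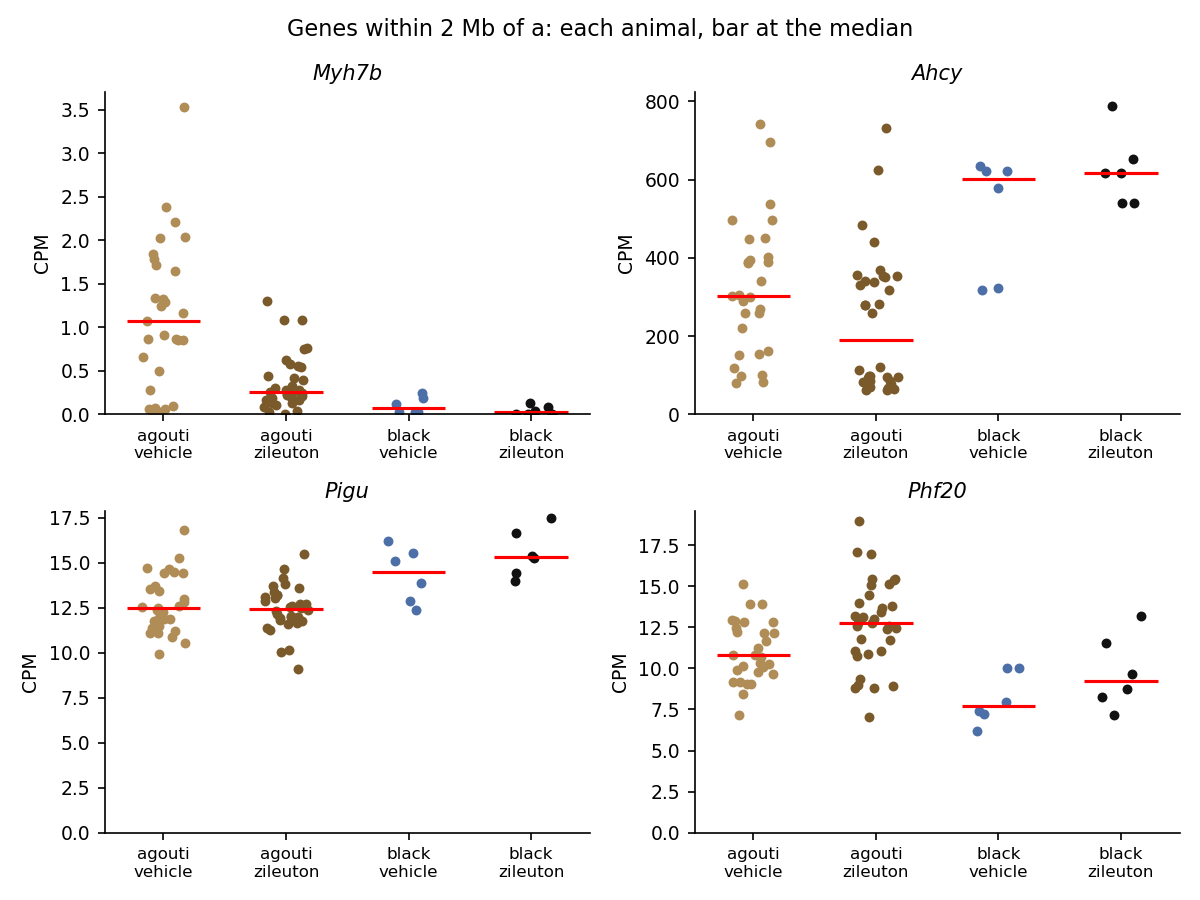
CPM of Myh7b, Ahcy, Pigu and Phf20 in each animal, by coat and exposure, with a red bar at each group's median. All axes start at 0. Black animals sit low in Myh7b and Phf20 and high in Ahcy and Pigu, and 2 black vehicle animals stand apart from the other 4 in Ahcy, at 316.5 and 323.6 CPM.

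Vehicle and zileuton animals are separate mice, so each exposure gives its own comparison of coats. In vehicle animals 0 of 13769 genes (0%) passed the adjusted edgeR test and 1215 (8.82%) were at an unadjusted p under 0.05, while DESeq2 called 24 genes, limma-voom 16, and limma on the deposited normalized values 0. In zileuton animals 1 of 13800 genes (0.00725%) passed, Mup14, and 515 (3.73%) were at an unadjusted p under 0.05. Without black zileuton replicate 6, 0 genes passed there. Within 5 Mb of a, 112 genes were tested under both exposures, 13 at an unadjusted p under 0.05 in vehicle animals and 14 in zileuton animals. Of these, 4 genes (3.57%) were under 0.05 in both, namely Myh7b, Pigu, Phf20 and Ahcy, and all 4 had the same direction in both. Among 13479 other genes tested under both exposures, 42 were under 0.05 in both, and 20 genes (0.148% of the 13479) were so with the same direction. Of the 13 genes near a at that level in vehicle animals, 61.5% had the same direction in zileuton animals, against 51.2% of other genes. Starting from the 14 genes in zileuton animals, the shares were 78.6% and 51%.

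**Figure D4:**
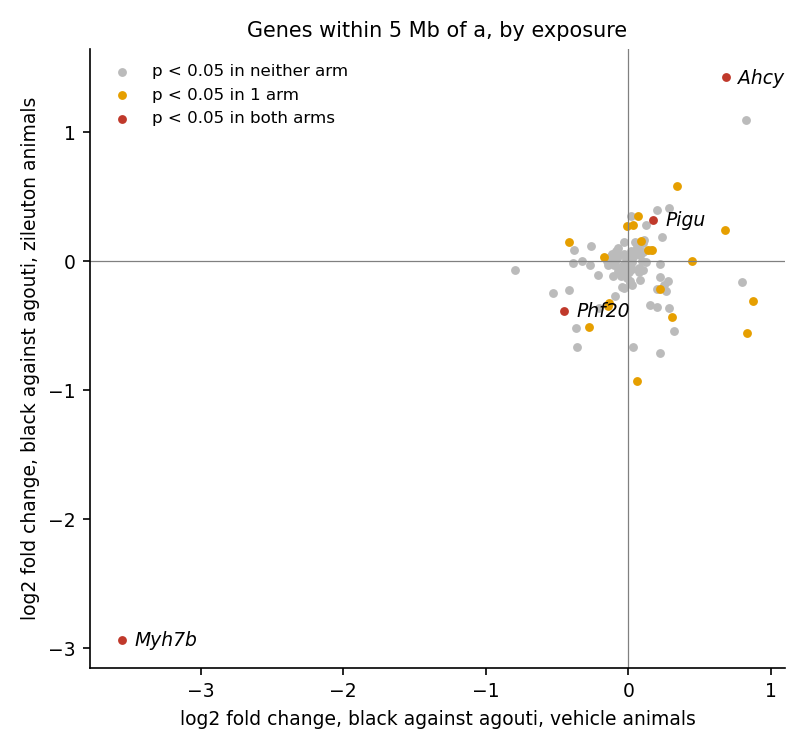
Log2 fold change of black against agouti in vehicle animals (x axis) and in zileuton animals (y axis) for the genes within 5 Mb of a tested under both exposures. Red points are the 4 genes at an unadjusted p under 0.05 in both, orange points those in 1 exposure. Myh7b lies far from the rest, at −3.55 and −2.93.

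The remaining 18 genes within 5 Mb at an unadjusted p under 0.05 had adjusted p-values up to 0.766, and none passed. Itch and Dynlrb1 were named by rule, and the other 16 after their values were seen. Itch, a ubiquitin ligase first known from mice with a rearranged agouti locus, lies 0.342 Mb away. Its medians were 52.3 CPM in black and 57.9 CPM in agouti vehicle animals, and 51.1 and 64.0 CPM in zileuton animals, with 11 of 12 black animals below the agouti median. Its log2 fold change was −0.24 ± 0.07 (unadjusted p = 0.00155, adjusted p = 0.432). Lower values in black animals were also measured for Epb41l1 (−0.39 on the log2 scale), a membrane skeleton protein, Psmf1 (−0.23), a proteasome inhibitor, Scand1 (−0.44), Trp53inp2 (−0.31), which acts in autophagy, and D630003M21Rik (−0.51). Higher values were measured for Chmp4b (0.12 on the log2 scale), part of the membrane-cutting ESCRT machinery, Cpne1 (0.16), a calcium-dependent membrane binder, Rbck1 (0.12), part of the linear ubiquitin ligase, Cdk5rap1 (0.35), a mitochondrial transfer RNA modifier, and Nsfl1c (0.13), a cofactor of the p97 ATPase. The same held for BC029722 (0.22), the tyrosine kinase Src (0.47), the dynein light chain Dynlrb1 (0.14), the noncoding RNA Snhg11 (0.97), Srxn1 (0.23), which repairs oxidized peroxiredoxins, the riboflavin transporter Slc52a3 (0.47) and the chromatin remodeller subunit Actr5 (0.12). Cdk5rap1 and Src each had 1 animal far above its own group, black zileuton replicate 4 at 24.3 CPM and black vehicle replicate 3 at 8.14 CPM.

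Other genes as close to a had small differences that did not pass. Raly, an RNA-binding protein gene that starts beside a, had a median of 54.6 CPM in black and 54.0 CPM in agouti animals and a log2 fold change of −0.01 ± 0.04 (adjusted p = 0.993). Its sign turned when some single animals were left out. Eif2s2, a subunit of translation initiation factor eIF2 that lies within the annotated span of a, had a log2 fold change of −0.05 ± 0.06 (adjusted p = 0.944). Ncoa6, a coactivator of nuclear receptors, was at −0.02 ± 0.06 (adjusted p = 0.987), and Map1lc3a, an autophagosome protein gene, at −0.12 ± 0.11 (adjusted p = 0.904). Raly and Eif2s2 overlap a in the annotation, and the strand setting of the counting is not given in the sources used here.

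Gss and Acss2 are neighbours 0.8 and 0.73 Mb from a that went different ways under the different exposures. Gss encodes glutathione synthetase. Black vehicle animals had 42.8, 50.1 and 69.1 CPM of Gss (lowest, median, highest) against 52.9, 71.7 and 89.9 CPM in agouti vehicle animals, and black zileuton animals 51.1, 63.5 and 77.6 CPM against 35.4, 56.3 and 78.8 CPM. The log2 fold change of Gss was −0.42 ± 0.11 in vehicle animals and 0.15 ± 0.12 in zileuton animals. Acss2, which makes acetyl-CoA from acetate, had log2 fold changes of 0.83 ± 0.27 and −0.55 ± 0.33. The tests of these differences between exposures had unadjusted p-values of 0.000966 and 0.00216 and adjusted p-values of 0.622 and 0.658, so neither passed. The genes share 22544 bases on opposite strands, and without a stated strand setting reads from that overlap cannot be told apart.

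Over all 14178 genes, the interaction of coat with exposure called 1 gene (0.00705%), Mup14. It had 0 calls without any 1 of the 6 black vehicle animals or without black zileuton replicate 6. Next by p came Fbxo7, a substrate receptor of a ubiquitin ligase (adjusted p = 0.0756). All 6 black vehicle animals, at 19.3 to 21.5 CPM, were above the agouti vehicle median of 17.6 CPM, and 5 of 6 black zileuton animals were below the agouti zileuton median of 18.4 CPM. Nr2f2, an orphan nuclear receptor of vessels and stroma (adjusted p = 0.118), was at 33.5 to 46.2 CPM in black zileuton animals, above 30 of 34 agouti zileuton animals, whose median was 26.8 CPM. In vehicle animals its medians were 25.4 CPM in black and 27.7 CPM in agouti animals. Hbegf, a growth factor that binds the EGF receptor (adjusted p = 0.188), was above the agouti median in all 6 black vehicle animals and below it in all 6 black zileuton animals, with medians of 2.60 and 1.18 CPM. None of these 3 genes passed.

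Beyond chromosome 2, Gm16223 was low in black animals and Mup14 was decided by 1 animal. Gm16223 is an unnamed gene model at chromosome 5, 42067960 to 42216798, named after its values were seen because its mean is 0.330 CPM. Black vehicle animals ran from 0 over a median of 0.0294 to 0.183 CPM, and black zileuton animals from 0 over 0 to 0.0524 CPM. Agouti vehicle animals ran from 0 over 0.331 to 1.31 CPM, and agouti zileuton animals from 0 over 0.393 to 1.24 CPM. All 12 black animals were below the agouti median and 48 of 63 agouti animals were above the highest black animal, while 7 black and 7 agouti animals were at 0. The log2 fold change was −3.32 ± 0.60 (adjusted p = 0.00196), −2.77 ± 0.84 under vehicle and −4.31 ± 0.87 under zileuton. The 12 black libraries held 10 counts of it in all, and the agouti libraries 607.

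Mup14 had a log2 fold change of 5.80 ± 0.85 (adjusted p = 2.93e-05). Black zileuton replicate 6 was at 601.9 CPM, and the next highest black animal was at 5.30 CPM. Medians were 0.326 CPM in black and 0.362 CPM in agouti vehicle animals, and 1.18 and 0.396 CPM in zileuton animals. Without that animal the log2 fold change was 0.06 (adjusted p = 0.994). Major urinary protein genes are near-identical copies of each other, so the count of any 1 of them is uncertain.

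**Figure D5:**
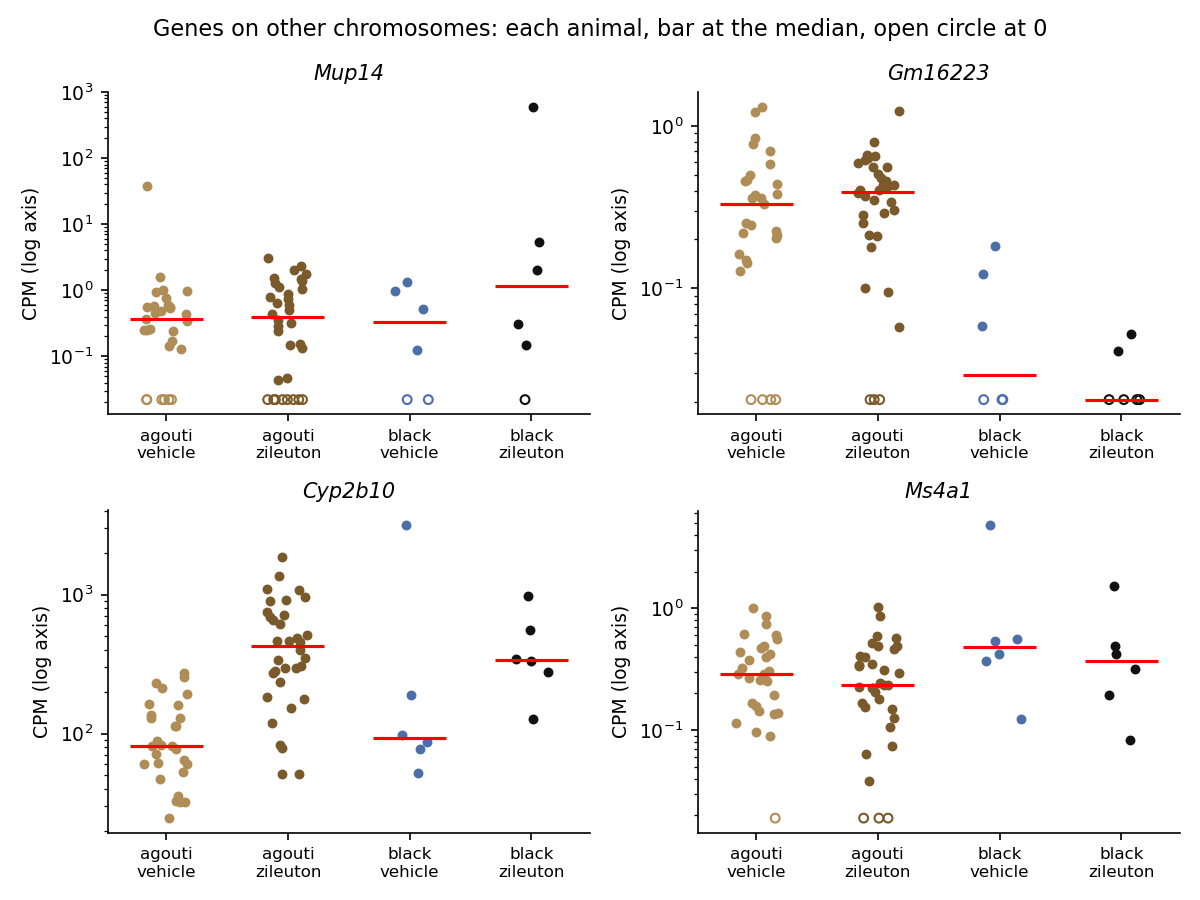
CPM on a log axis of Mup14, Gm16223, Cyp2b10 and Ms4a1 in each animal, with a red bar at each group's median. Open circles mark animals at 0 and are drawn below the lowest value above 0, and a bar there stands for a median of 0. Mup14 has 1 black zileuton animal at 601.9 CPM, Cyp2b10 1 black vehicle animal at 3157 CPM, Ms4a1 1 black vehicle animal at 4.80 CPM, while Gm16223 is low in all 12 black animals.

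No member of 29 lists of functions and cell types passed the adjusted test, 0 of 343 genes tested. The median log2 fold change of the lists with at least 4 tested members ran from −0.18 to 0.88, against −0.00 over all genes, of which 6.52% were at an unadjusted p under 0.05. Coat biology itself showed little in liver. Of the agouti and melanocortin signalling list, 5 genes passed the filter and 0 were at an unadjusted p under 0.05. In the melanin synthesis list 2 of 6 (33.3%) were, with Kit, the stem cell factor receptor, at 0.58 ± 0.20 and Slc24a5, a melanosome ion exchanger, at −0.56 ± 0.23 on the log2 scale. Kit was raised in black vehicle replicate 6, at 10.2 CPM against a black vehicle median of 3.85 CPM, and the list had 1 of 6 without that animal. Dct, a melanin pathway enzyme, was measurable in these livers at 0 to 79.9 CPM, with medians of 16.8 CPM in black and 16.2 CPM in agouti vehicle animals and of 27.2 and 11.6 CPM in zileuton animals. In the methionine cycle list, Ahcy was the 1 gene of 18 at that level, and the list's median log2 fold change was 0.01. In the list of glutathione synthesis and recycling it was Gsr, glutathione reductase (0.16 ± 0.08), 1 of 12. Without black vehicle replicate 6, Gsr was at 0.15 (unadjusted p = 0.0662, edgeR). The 1 gene of 12 at that level in that fit was lower in black animals. The lists for cholesterol synthesis (22 genes), fatty acid synthesis (16), the acute phase (16), the cell cycle (24) and sex-biased genes (21) had 0 genes at an unadjusted p under 0.05. In those lists the lowest p belonged to the sterol enzyme gene Nsdhl (0.17 ± 0.13), the lipogenic regulator Srebf1 (−0.18 ± 0.13), serum amyloid Saa1 (−1.35 ± 0.69), the mitotic kinesin Kif20a (−0.61 ± 0.36) and the thioesterase gene Acot3 (0.59 ± 0.31). PPARalpha targets had 1 of 26 at that level, the hormone gene Fgf21 (−1.06 ± 0.41), and circadian clock genes 1 of 19, the repressor Nfil3 (−0.44 ± 0.21), with 0 of 19 without black vehicle replicate 6. Plasma protein genes had 1 of 26, Fetub (0.61 ± 0.26), and interferon response genes 3 of 20, all higher, with Irgm1 (0.25 ± 0.11) first, and 0 of 20 without black vehicle replicate 2.

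Targets of CAR and PXR, NRF2 targets and B cell markers had the most genes by number at an unadjusted p under 0.05, against a share of 6.52% over all genes, and each of these counts fell when 1 animal was left out. CAR and PXR are drug-sensing receptors, and their targets had 7 of 23 genes (30.4%), all higher in black animals, with a median log2 fold change of 0.23. Among them were the cytochromes P450 Cyp2c55 (1.80 ± 0.46), Cyp2b10 (1.55 ± 0.41) and Cyp2c29 (0.61 ± 0.21). Summed over the 23 genes, the highest black vehicle animal was at 46600 CPM. Agouti vehicle animals ran from 10980 to 24190 CPM and agouti zileuton animals from 16350 to 47680 CPM. Black vehicle replicate 6 had 3157 CPM of Cyp2b10 and 235.3 CPM of Cyp2c55, where the next black vehicle animals had 188.9 and 8.69 CPM. Without that animal, 0 of the 23 genes were at that level, against 5.93% of all genes. The list's median was then 0.01, and Cyp2b10 and Cyp2c55 turned to −0.18 and −0.21. NRF2 targets, the antioxidant genes, had 6 of 19 (31.6%), all higher, Akr1b8 (0.42 ± 0.13) and Nqo1 (0.38 ± 0.16) among them, and 2 of 19, 1 in each direction, without the same animal.

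Markers of B cells, the antibody-making lineage, had 4 of 5 genes (80%) higher at that level, with Ms4a1 (1.27 ± 0.34), Cd79a (1.06 ± 0.32) and Cd79b (0.86 ± 0.28) among them. Their summed level was 36.3 CPM in black vehicle replicate 2 and 1.79 to 12.9 CPM in the other 11 black animals, while agouti animals ran from 0.692 to 16.7 CPM. Without black vehicle replicate 2, 0 of the 5 were at that level, against 4.94% of all genes, and the list's median was 0.47. The same library held 15.4 CPM of adipose markers, against 7.47 CPM in the highest agouti animal, and 0 of the 17 MHC and antigen presentation genes were at that level without it, against 2 of 17 with it, H2-T23 (0.49 ± 0.21) and Psmb9 (0.34 ± 0.15). That count was 5 of 17 (29.4%) without agouti vehicle replicate 6, the library with muscle markers, and 3 of 17 without black vehicle replicate 6. In bulk liver, more cells of a type and more RNA per cell cannot be told apart. Markers of hepatocytes (0 of 8 genes), Kupffer cells (0 of 8), endothelium (1 of 8, higher), stellate cells (1 of 8, higher), T and NK cells (1 of 8, higher), bile duct cells (1 of 5, higher), neutrophils (0 of 3), erythroid cells (0 of 4), muscle (0 of 1), fat (1 of 2, 50%, higher), pancreas acini (0 of 2) and melanocytes (0 of 2) had these counts at that level. The genes in question were Pecam1 of endothelium (0.24 ± 0.09), the collagen gene Col1a1 of stellate cells (0.50 ± 0.24), Cd3e of T cells (0.46 ± 0.21), the keratin Krt19 of bile ducts (0.87 ± 0.27) and Cfd of fat (2.60 ± 0.77). Without black vehicle replicate 2, the counts for endothelium, stellate cells, T and NK cells and fat were all 0, and that for T and NK cells was also 0 without black vehicle replicate 6. Stellate cells had 2 of 8 without agouti vehicle replicate 6. The 22 genes near a (18.6%) numbered 20 (16.8%) without black vehicle replicate 2, 21 (17.5%) without replicate 6 and 19 (15.8%) without both. Over all genes, the 924 at that level (6.52%) numbered 701 (4.94%), 841 (5.93%) and 564 (3.98%) in the same order. Without agouti vehicle replicate 6 they numbered 938 (6.63%).

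The spread among animals, compared as absolute deviations of log2 CPM from the group's fitted value, was wider in black animals for 7 of 14178 genes (0.0494%) and narrower for 0. They included Hint3, a nucleotide hydrolase (adjusted p = 5.74e-06), the nucleotide synthesis gene Prps2 (0.0108), 5830444B04Rik (0.0115) and the SUMO ligase Pias2 (0.0436). Hint3 ran from 3.26 to 26.5 CPM in black animals and from 4.58 to 30.6 CPM in agouti animals. None of the 4 lies on chromosome 2. Without black zileuton replicate 5 only Prps2 was called. The direction depended on the measure: with the log of squared residuals, most of the called genes were narrower in black animals.

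Pigu was called higher in black animals, and Phf20, which did not pass and was picked after its values were seen, had a negative log2 fold change. The levels of both were also compared across animals of 1 coat. Pearson's r of their log2 CPM was −0.472 in 34 agouti zileuton animals (permutation p = 0.0047, adjusted 0.021, rho −0.555 with p = 0.00096 and adjusted 0.0099) and −0.59 without the 2 animals farthest from the median of Pigu. It was −0.234 in 29 agouti vehicle animals (permutation p = 0.22, adjusted 0.33, rho −0.166 with p = 0.39 and adjusted 0.5) and −0.242 without 2 such animals. In the 12 black animals, centred within exposure, it was −0.646 (permutation p = 0.026, adjusted 0.06, rho −0.699 with p = 0.014 and adjusted 0.052) and −0.406 without 2 such animals. Single runs of 50 animal numbers hold too few animals for an r of their own. Centred within these runs, r was −0.5, −0.201 and −0.501 in the same order. Runs 4, 5, 7 and 8 each held 1 black animal, and run 5 held 1 agouti zileuton animal. Centring sets a lone animal to 0, so the black value in particular does not rest on all 12 animals. The p-values were adjusted over 18 relations among Myh7b, Pigu, Phf20 and Ahcy. The pairs with Ahcy are not given because agouti zileuton animals fell into separate ranges of it, and those with Myh7b because its counts are near 0. In each set of animals some of the pairs left out had a larger absolute r than Pigu with Phf20.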

How the data were processed

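Liver RNA-seq libraries (TruSeq, Illumina HiSeq, per the labels) of 90 mice were deposited as 2 tables. The first holds the authors' estimated count of reads per gene, with 76.7% of values whole. The second holds a signal normalized by the authors, which equals each library's rounded counts divided by a size factor (largest relative deviation 5e-06 at counts above 50). Partek, STAR, DESeq2 and mm10 are named in the submitters' processing notes, without versions. No source used here gives the counting tool, annotation or strand setting. The mm10 build is a C57BL/6J assembly, and whether reads of other founder haplotypes near a aligned equally well was not tested.

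Animals were matched by animal number and grouped by the coat and exposure labels. Of 18223 gene columns, 17848 matched a GENCODE M21 symbol and 106 an older one (98.5%). Counts were rounded, filtered with filterByExpr and scaled with TMM. The main test was the edgeR 4.0.16 robust quasi-likelihood F test in R 4.3.3, with exposure as a term and Benjamini-Hochberg adjustment over all genes tested. All tests were two-sided. SE is the absolute log2 fold change divided by the root of F, and CPM uses TMM library sizes. Spread was tested with limma 3.58.1 on log2 CPM (prior count 2). Lists and windows were described by counts, with no test. The fits were tested on simulated data. Alternatives were other scalings and filters, DESeq2 1.42.0, limma-voom, limma on the normalized values, and libraries left out. Further terms were the run of animal numbers, the position in the run, and the row and column of the library code. The runs of 50 animal numbers were formed here and are not known to be batches. Correlations used 100000 permutations.

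The rule for named genes took called genes with a mean of at least 1 CPM, 10 genes around a, the lowest p in each list, and up to 4 genes each for the interaction and the spread. The comparison and the lists were chosen with earlier results of these data known. Libraries were checked for duplicates, and the most similar pair still had a chi-square per gene of 44.9. The values of 1 list gene are not reported here.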

Additional observations from a re-analysis of the deposited data

Results flagged for a closer look

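Dixon's criterion for 6 values was applied to 88 named genes in both black groups, 176 sets of 6 values in all, and 29 sets had an extreme animal. The criterion flags about 1 in 20 when values are normal. Here it was applied to CPM without a log, and the genes share animals, so 29 of 176 cannot be set against that rate. Many of the flagged genes were named for a low p, which an extreme animal can give. Black vehicle replicate 2 was highest in Ms4a1 (4.80 CPM), Pou2af1 (5.53 CPM) and Cxcr5 (2.74 CPM), genes of B cells, and in Cfd (5.71 CPM), an adipocyte protein, and Vwa1 (2.47 CPM). Black vehicle replicate 6 was highest in Cyp2b10 (3157 CPM), Cyp2c55 (235.3 CPM), Krt4 (7.90 CPM) and Kit (10.2 CPM) and lowest in Kifap3 (5.21 CPM). Replicate 3 of that group was highest in Saa1 (175.4 CPM) and Src (8.14 CPM), replicate 4 in Dct (79.9 CPM) and Mrap2 (16.8 CPM), and replicate 5 in Igf2 (10.1 CPM).

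Black zileuton replicate 5 was highest in Fetub (6276 CPM), Pias2 (41.07 CPM), Srxn1 (80.35 CPM), Kif1a (5.295 CPM), 5830444B04Rik (1.23 CPM) and Cela2a (0.554 CPM). Black zileuton replicate 6 was highest in Mup14 (601.9 CPM) and Creb3l1 (2.42 CPM) and lowest in Kctd20 (33.3 CPM). In that group, replicate 4 was highest in Alas2 (25.55 CPM) and Cdk5rap1 (24.3 CPM), replicate 3 in Mrap2 (5.05 CPM), and replicate 2 in Ms4a1 (1.52 CPM) and Cfd (0.853 CPM). The coat difference of Mup14 differed between exposures by 9.23 on the log2 scale in the interaction test (adjusted p = 0.0387, edgeR), and rests on the animal at 601.9 CPM.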

How the results depend on the processing

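Over 14 other settings, the count of 4 called genes was 36 with no filter on low counts (33 of them higher in black animals), 2 with a mean of at least 1 CPM and 1, Myh7b, with the row and column of the library code as terms, and it was 3 to 6 otherwise and 3 to 8 over the 75 fits without 1 animal. Myh7b was called in all 75 of these and in 12 of 13 other settings that tested it, Gm16223 in 75 and 11 of 13, and Pigu in 70 and 13 of 14. Mup14 was called in 74 and 8 of 13, leaving out DESeq2, which gave it no adjusted p. The 22 genes within 5 Mb of a at an unadjusted p under 0.05 were 17 to 28 under other settings and 16 to 22 without 1 animal. In vehicle animals, 0 calls became 40 with no filter, 24 with DESeq2, 16 with limma-voom, and 1 to 3 without 1 black animal. In zileuton animals, 1 call became 2 with no filter, DESeq2 and limma-voom, 0 with limma on the normalized values plus 1 or plus 0.1, and 0 to 1 without 1 black animal. For the interaction, 1 call became 0 with no filter, limma-voom and limma on the normalized values with either pseudocount, and was 0 to 2 without 1 black animal. DESeq2 called Fbxo7 in place of Mup14 there. The 7 calls of spread became 16 with a prior count of 0.5 and 12 with the log of squared residuals (2 of them wider in black animals), and were 1 to 19 without 1 black animal. Signs turned without the 8 lowest totals for Cyp2b10 (−0.18), Cyp2c55 (−0.00408) and Fbxo7 (−0.000452), for Eif2s2 with row and column terms (0.00446), for Mylpf with DESeq2 (0.021) and without the muscle library (0.0334), and for S100a8 with limma on values plus 0.1 (0.12). Without 1 animal, Cyp2b10 ran from −0.18 to 1.69, Cyp2c55 from −0.21 to 2.003, Mylpf from −2.24 to 0.0334 and Raly from −0.0287 to 0.00362. The 8 lowest totals include black vehicle replicate 6 (16471322), and without that animal alone Cyp2b10 was at −0.18 and Cyp2c55 at −0.21. The muscle library is agouti vehicle replicate 6, so both ways of leaving it out are the same fit for Mylpf. Beyond these overlaps, the cause of the changes was not tested. No paired analysis was possible because replicate numbers only name animals and pair none across groups. The low counts of Myh7b and Gm16223 limit the precision of their fold changes.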

Other observations

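Away from the 5 Mb around a, 27 genes were at an unadjusted p under 0.001, 17 higher and 10 lower in black animals, and all but Mup14, Cyp2c55 and Ms4a1, which the rule for named genes gave, were named after their values were seen. Over all 14178 genes tested, 31 (0.219%) were at that level. Of the 27 genes, 10 were under 0.05 with the same direction in both exposures, 4 higher and 6 lower. Among the 13479 genes outside the 5 Mb tested under both exposures, 20 (0.148%) were. The 27 were picked by their p over the same animals, so the overlap of exposures is partly built in. The higher ones were the neuronal kinesin gene Kif1a (1.69 ± 0.40 on the log2 scale, adjusted p = 0.0913), the stress-linked transcription factor gene Creb3l1 (0.61 ± 0.16, adjusted p = 0.226), Atp5a1, the alpha subunit of mitochondrial ATP synthase (0.22 ± 0.06, adjusted p = 0.297), and Kctd20 (0.19 ± 0.06, adjusted p = 0.414). The lower ones, beside Gm16223, were Asph, an aspartate hydroxylase gene (−0.28 ± 0.07, adjusted p = 0.155), 2410089E03Rik (−0.53 ± 0.13, adjusted p = 0.202), the transporter genes Mfsd9 (−0.31 ± 0.09, adjusted p = 0.302) and Abca3 (−0.53 ± 0.15, adjusted p = 0.353), and the DNA helicase gene Helq (−0.29 ± 0.08, adjusted p = 0.329). None but Gm16223 passed. Creb3l1 is on chromosome 2, at 62.8 Mb to the proximal side of a.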
